A study of Sus scrofa with 9 samples.

Results

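The smooth muscle contractile apparatus is described here through 10 genes taken by gene name from a table of 30477 pig genes. All 10 names were found, each on 1 row, and all passed the filter on low values. They are the actins ACTA2 and ACTG2, the myosin genes MYH11 and MYL9, the kinase gene MYLK, the actin-binding genes TAGLN, CNN1 and CALD1, and the tropomyosins TPM1 and TPM2.

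Smooth muscle cells of the vessel wall contract when myosin filaments pull on actin filaments. Calcium bound to calmodulin activates myosin light chain kinase, which phosphorylates the regulatory light chain and switches the myosin on. Tropomyosin, caldesmon and calponin lie along the actin filament and modulate its interaction with myosin. In injured or remodelling vessels these genes serve as markers of the contractile state of smooth muscle cells, and some of them are also made by myofibroblasts.

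The libraries came from outflow veins of arteriovenous fistulas, in which an artery is joined to a vein to give access for dialysis. All animals were pigs (Sus scrofa) with a model of chronic kidney disease, which the control group carried as well. The fistula joined carotid artery and jugular vein and was made 28 days after the disease was started, and the vein was taken 28 days later. In 6 libraries (MSC 1 to MSC 6) mesenchymal stem cells from fat tissue, in Ringer lactate, had been placed on the adventitia, the outer layer of the vein, at surgery. In 3 libraries (control 1 to control 3) the vein was untreated, so the carrier fluid had no group of its own. The comparison asks how the cell treatment alters expression in the vein that carries the flow of the fistula. The labels do not explain the tags NT and F in the name of control 2 or Allo and M in that of MSC 1, and state neither age nor strain.

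The libraries held 16939157 to 47417606 reads, recovered from the RPKM values (reads per kilobase of gene, scaled to sequencing depth). A read on a gene 2 kilobases long equalled 0.0105 to 0.0295 RPKM, depending on the library. Control 2 and MSC 6 stood apart by their small RNA, at 40.4% and 53.3% of all reads, while the other libraries had 6.75% to 16.4%. MSC 5 stood apart by its genes as a whole, being the top library for 31.7% of the 17884 genes tested and the bottom one for 31.8%. All levels below are RPKM divided by a scaling factor per library, called scaled RPKM. The contractile genes had 209 to 347072 reads each in a library, so counting error was small beside the spread between libraries. Lanes 5 and 6 of the flow cell held both groups, and lane 7 held only MSC 2, MSC 5 and MSC 6.

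In the MSC group 9 of the 10 contractile genes had a higher mean log2 level than in the controls, and CALD1 did not. No gene passed the test, and the 6 MSC libraries differed from each other more than the 3 controls did. MSC 3 held the lowest level of all 10 genes among the 9 libraries. MSC 5 and MSC 6 held the highest and second highest level of 9 of them. MSC 1, MSC 2 and MSC 4 lay between these extremes, mostly above the controls.

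limma called 0 of the 10 genes and 0 of 17884 genes at an adjusted p of 0.05 (0% of the genes tested), and the adjusted p was 0.92 for each of the 10. At an unadjusted p under 0.05 there was 1 of the 10, ACTG2, and 729 of all genes. In 19 alternative settings 0 of the 10 were called, and the share of all genes called was 0.0224% in lanes 5 and 6 alone, 0.123% without control 1, 0.0168% without MSC 3, 0.00559% without MSC 2 and 0% in the other 15. limma-voom on the recovered reads also called 0 of 10 and 0 of 17884, with 2 and 809 at an unadjusted p under 0.05. The median log2 fold change of the 10 genes was 1.54, beside 0.04 over all genes tested. A log2 fold change above 1 was reached by 9 of the 10 and by 2.03% of all genes. All 10 are well expressed, while that share includes weakly expressed genes, whose fold changes shrink because 1 was added before taking logs. Without MSC 5 and MSC 6 the median of the 10 was 0.64, and with lanes 5 and 6 alone, where both groups were sequenced, it was 0.47. In bulk tissue, a difference in the number of muscle cells and a difference in RNA per muscle cell cannot be told apart.

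**Figure D1:**
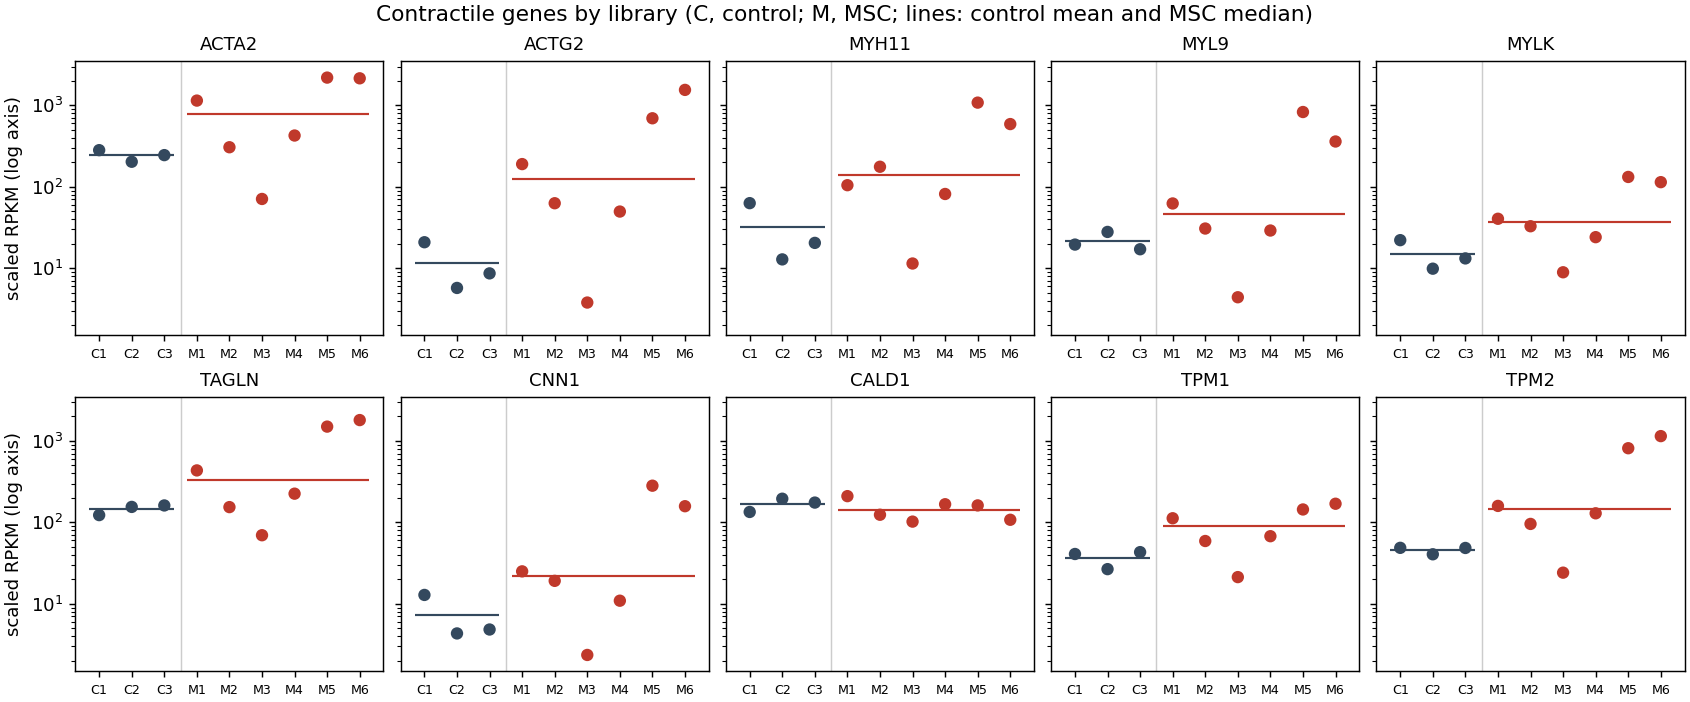
Scaled RPKM (log axis, the same in all panels) of the 10 contractile genes in each library; C1 to C3 are controls and M1 to M6 MSC libraries. Horizontal lines give the control mean and the MSC median. MSC 3 is lowest in all 10 panels, MSC 5 and MSC 6 are the top libraries in 9, and CALD1 stays between 102 and 210 scaled RPKM.

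Both smooth muscle actins spread widely over the MSC libraries, while the controls differed 1.39-fold for ACTA2 and 3.64-fold for ACTG2. ACTA2, the actin of vascular smooth muscle and of myofibroblasts (ENSSSCG00000010447, chromosome 14, 100867733 to 100886713), stood at 282, 203 and 245 scaled RPKM in control 1, 2 and 3. In MSC 1 to MSC 6 it stood at 1146, 306, 71.0, 427, 2194 and 2151. Thus 5 MSC libraries lay above every control and MSC 3 lay below every control. The means were 243 ± 39.5 (SD, n = 3) and 1049 ± 941.2 (SD, n = 6), and the log2 fold change of 1.33 ± 1.04 (SE) had a limma adjusted p of 0.92.

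ACTG2, the gamma actin typical of visceral smooth muscle (ENSSSCG00000008294, chromosome 3, 69096782 to 69121349), was far less abundant in controls, at 20.9, 5.73 and 8.65 scaled RPKM. The MSC libraries held 190, 62.9, 3.79, 49.7, 695 and 1550. MSC 6 was highest, and again 5 MSC libraries lay above all controls and MSC 3 below them. Its log2 fold change of 3.43 ± 1.51 (SE) was the highest of the 10 genes (limma unadjusted p of 0.0454, adjusted p of 0.92). The value was 4.37 without MSC 3 and 1.88 without MSC 5 and MSC 6.

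For the motor and its switch MSC 5 was the highest library, MSC 6 the next and MSC 3 the lowest. MYH11, the smooth muscle myosin heavy chain and the marker most restricted to smooth muscle cells (ENSSSCG00000000146, chromosome 3, 7002733 to 7143094), stood at 63.0, 12.9 and 20.5 scaled RPKM in the controls. In MSC 1 to MSC 6 it stood at 105, 176, 11.4, 81.7, 1081 and 590. The control values themselves differed 4.91-fold, with control 1 highest. Here 5 MSC libraries exceeded every control, and the log2 fold change was 2.51 ± 1.21 (SE; limma adjusted p of 0.92). NDE1, which overlaps MYH11, had reads equal to 2.26% of those of MYH11 over all libraries.

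MYL9, the regulatory light chain that the kinase phosphorylates (ENSSSCG00000036402, chromosome 17, 39788199 to 39795296), stood at 19.5, 27.9 and 17.1 scaled RPKM in the controls. The MSC libraries held 62.5, 30.8, 4.41, 29.1, 829 and 360. MSC 2 and MSC 4 lay just above control 2, while MSC 1, MSC 5 and MSC 6 stood well above it. The log2 fold change was 1.62 ± 1.32 (SE; limma adjusted p of 0.92). It was 0.12 without MSC 5 and MSC 6 and −0.02 in lanes 5 and 6 alone, where its sign turned. TGIF2, which overlaps MYL9, had reads equal to 10.8% of those of MYL9.

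MYLK, which encodes myosin light chain kinase (ENSSSCG00000011867, chromosome 13, 136508808 to 136809674), had a narrower spread. Its controls stood at 22.1, 9.88 and 13.2 scaled RPKM, and MSC 1 to MSC 6 at 40.5, 32.8, 8.93, 24.1, 132 and 114. Again 5 MSC libraries lay above every control, MSC 4 by the least. The log2 fold change was 1.45 ± 0.75 (SE; limma adjusted p of 0.92). The RefSeq table lists 12 transcripts of MYLK, and values per gene do not separate the short smooth muscle form from the long form of other cells.

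Of the 3 actin-binding genes, TAGLN and CNN1 had MSC 5 and MSC 6 as their top libraries, as the actins did, and CALD1 did not. TAGLN, which encodes transgelin (SM22 alpha), an early marker of smooth muscle cells (ENSSSCG00000015073, chromosome 9, 44560785 to 44567385), stood at 123, 155 and 162 scaled RPKM in the controls. The MSC libraries held 435, 154, 69.6, 225, 1501 and 1805. MSC 2 lay within the control range, and 4 MSC libraries lay above it. The means were 146.5 ± 20.7 (SD, n = 3) and 698 ± 756 (SD, n = 6), with a log2 fold change of 1.37 ± 0.98 (SE; limma adjusted p of 0.92).

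CNN1, the calponin of differentiated smooth muscle (ENSSSCG00000013614, chromosome 2, 70182925 to 70197384), was the least abundant of the 10 in controls, at 12.9, 4.33 and 4.84 scaled RPKM. In MSC 1 to MSC 6 it stood at 25.1, 19.2, 2.36, 10.9, 282 and 158. MSC 4 lay below control 1, and 4 MSC libraries lay above all controls. The log2 fold change was 2.05 ± 1.21 (SE; limma adjusted p of 0.92), and 0.67 without MSC 5 and MSC 6. ELOF1, which overlaps CNN1, had reads equal to 10.6% of those of CNN1.

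CALD1, which encodes caldesmon (ENSSSCG00000016535, chromosome 18, 14267955 to 14539017), stood at 134, 195 and 175 scaled RPKM in the controls and 210, 124, 102, 167, 162 and 108 in MSC 1 to MSC 6. The groups overlapped over most of their ranges. Its highest library was MSC 1, and MSC 6, a top library for the other genes, ranked 8 of 9. The log2 fold change was −0.24 ± 0.38 (SE; limma adjusted p of 0.92). That does not show equal levels, but with all libraries the difference was small beside those of the other 9. Without MSC 5 and MSC 6 the CALD1 value was −0.19, beside 0.12 for MYL9 and 0.3 or more for the rest. The sign of CALD1 was negative in all 19 alternative settings. Caldesmon has a heavy form of smooth muscle and a light form of most other cells. The RefSeq table lists 16 transcripts of CALD1, and values per gene pool these forms.

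The tropomyosins, which wind along the actin filament, both had MSC 6 as the highest library and MSC 5 as the next. TPM2 (ENSSSCG00000005316, chromosome 1, 236402247 to 236410471) had the tightest controls of the 10, at 48.7, 40.6 and 48.6 scaled RPKM. The MSC libraries held 159, 95.8, 24.2, 129, 815 and 1147. The 5 MSC libraries other than MSC 3 all lay at least as high as 95.8, above every control. The means were 46.0 ± 4.64 (SD, n = 3) and 395 ± 468 (SD, n = 6), with a log2 fold change of 2.02 ± 1.05 (SE; limma adjusted p of 0.92).

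TPM1 (ENSSSCG00000004570, chromosome 1, 108986981 to 109019440) stood at 40.9, 26.7 and 43.2 scaled RPKM in the controls and 112, 59.1, 21.3, 67.7, 144 and 170 in MSC 1 to MSC 6. The MSC libraries stood in the same order as for TPM2, with a 7.96-fold range against 47.5-fold. Its log2 fold change was 1.10 ± 0.60 (SE; limma adjusted p of 0.92). TPM1 is used with different splicing by many cell types, and the RefSeq table lists 24 transcripts of it.

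**Figure D2:**
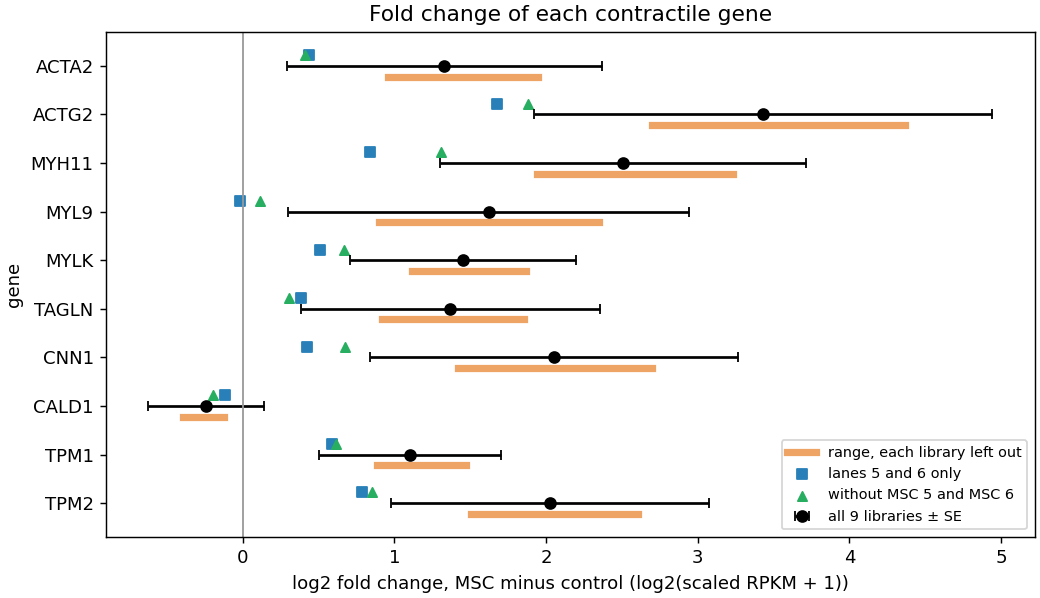
Log2 fold change (MSC minus control, on log2(scaled RPKM + 1)) of each contractile gene: black points with SE bars use all 9 libraries, orange bars give the range when each library is left out in turn, and squares and triangles give lanes 5 and 6 alone and the fit without MSC 5 and MSC 6. Estimates lie above 0 for 9 genes with all libraries, and MYL9 reaches −0.02 in lanes 5 and 6.

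The spread within the MSC group was itself the main feature of these genes. The SD of log2 levels over the 6 MSC libraries had a median of 1.98 over the 10 genes and ran from 0.40 in CALD1 to 2.98 in ACTG2. Over the 3 controls the median SD was 0.36, with 1.14 in MYH11 as the highest. Among the 1900 genes tested with a mean log2 level above 4, which include all 10, the median SD was 0.84 over MSC libraries and 0.24 over controls. From the lowest to the highest MSC library, ACTG2 differed 409-fold, MYL9 188-fold and CNN1 120-fold, against 2.05-fold for CALD1.

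Library by library, the 10 genes together took 0.491%, 0.341% and 0.415% of the protein-coding reads in control 1, 2 and 3. In MSC 1 to MSC 6 they took 1.06%, 0.709%, 0.196%, 0.640%, 2.18% and 1.998%. Hence 5 MSC libraries lay above every control in this share and MSC 3 lay below, as for 7 of the 10 single genes. In MSC 5, 8 of the 10 genes were among the 5% of well expressed genes that stood highest over their own mean. In MSC 3, 9 of the 10 were among the lowest 5%, and control 2 and control 3 had 7 and 8 there. MSC 6, whose genes as a whole spread widely (SD of 1.38 on the log2 scale over the 1900 genes, 1.65 in MSC 5, at most 0.99 elsewhere), had 2 of the 10 in the highest 5%.

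With all libraries, in 0 of the 10 genes did every MSC library lie above every control, where 1.97% of the genes tested did. Without MSC 3 this count was 7 (ACTA2, ACTG2, MYH11, MYL9, MYLK, TPM1 and TPM2), beside 4.75% of the genes tested. The count was 0 when any other single library was left out. The background was then 4.17%, 2.84% and 2.81% without control 1, 2 and 3, and 2.28%, 2.92%, 2.23%, 3.01% and 2.21% without MSC 1, 2, 4, 5 and 6. It was also 0 in lanes 5 and 6 alone (background 9.45%) and without both MSC 5 and MSC 6 (4.64%). The limma test still called 0 of the 10 without MSC 3. At an unadjusted p under 0.05 it then had 7 of the 10 and 1051 of the 17884 genes tested. MSC 3 was the lowest library for each of the 10, so leaving it out raises their MSC means by construction.

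Within lane 5, MSC 1 lay above the mean of control 1 and control 2 by 2.25 (log2) for ACTA2, 3.98 for ACTG2 and 1.83 for MYH11. Within lane 6, the mean of MSC 3 and MSC 4 differed from control 3 by −0.49, 0.69 and 0.58 for the same genes. Over all 10 genes the difference was above 0 for 10 in lane 5. In lane 6 it was above 0 for 5 (ACTG2, MYH11, MYLK, CNN1 and TPM2) and below 0 for the other 5. With lane in the model the median of the 10 genes was 0.82, from fold changes that weigh the lane 5 and lane 6 differences alike. MSC 1 is the only MSC library of lane 5. Lane 7 had no control, so lane and treatment cannot be told apart there, and its libraries do not enter these fold changes.

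**Figure D3:**
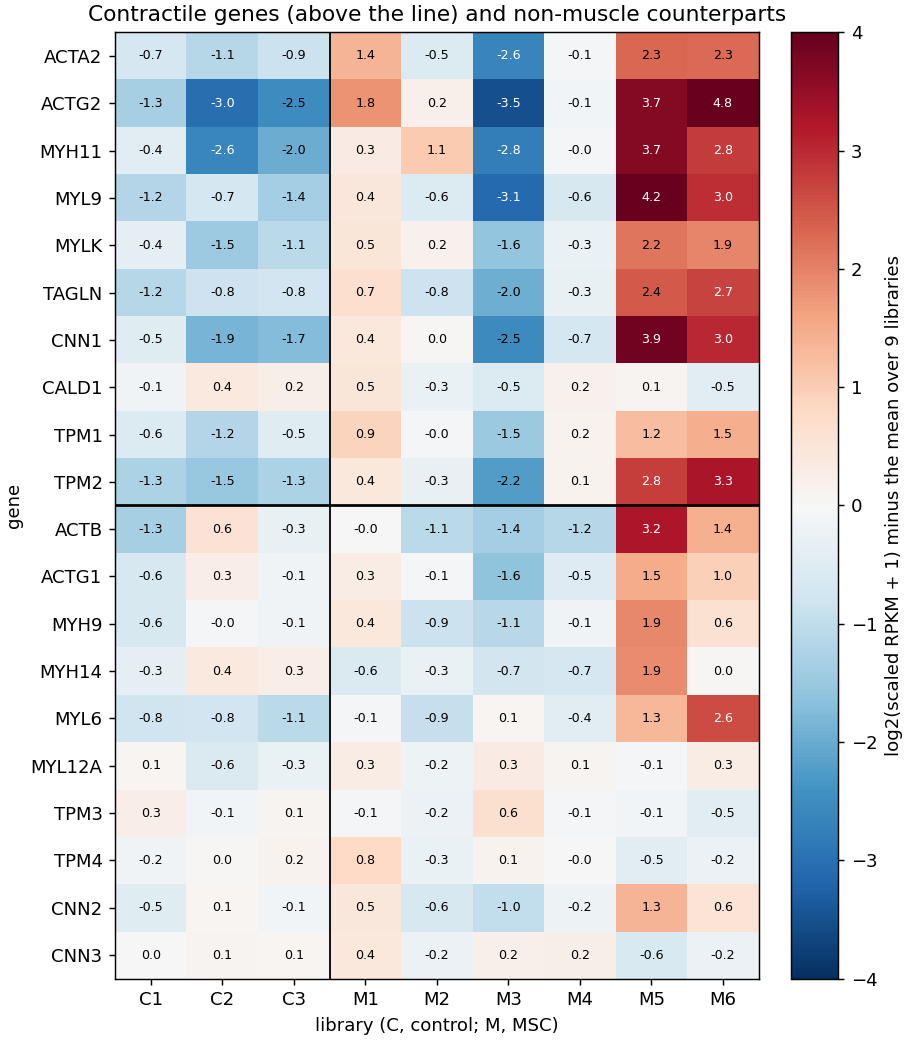
Log2(scaled RPKM + 1) minus its mean over the 9 libraries (colour and printed value) for the 10 contractile genes, above the black line, and 10 non-muscle counterparts below it. Columns are controls (C1 to C3) and MSC libraries (M1 to M6). The M3 column is the lowest for all 10 contractile genes, and the M5 and M6 columns are the highest for 9, with CALD1 as the exception.

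The make-up of the contractile signal also varied. In the controls the most abundant of the 10 per length was ACTA2, followed by CALD1, TAGLN, TPM2, TPM1, MYH11, MYL9, MYLK, ACTG2 and CNN1. In 7 of the 9 neighbouring pairs of that order the ranges over the controls overlapped, the exceptions being ACTA2 over CALD1 and TAGLN over TPM2. By the MSC median the order was ACTA2, TAGLN, TPM2, CALD1, MYH11, ACTG2, TPM1, MYL9, MYLK and CNN1, with overlapping ranges in all 9 pairs.

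As a share of the summed scaled RPKM of the 10 genes, CALD1 held 17.5%, 28.7% and 23.7% in the controls and 8.46%, 11.7%, 32.0%, 13.8%, 2.06% and 1.32% in MSC 1 to MSC 6. MSC 3 had the highest CALD1 share and the other MSC libraries lay below every control. ACTG2 held 2.72%, 0.841% and 1.17% in controls and 7.65%, 5.92%, 1.19%, 4.10%, 8.87% and 19.0% in MSC libraries. The ACTG2 share was thus above every control in 5 MSC libraries, while that of ACTA2 stayed between 22.2% and 46.1% in all 9 libraries. These shares were chosen after the values were seen and were not tested.

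**Figure D4:**
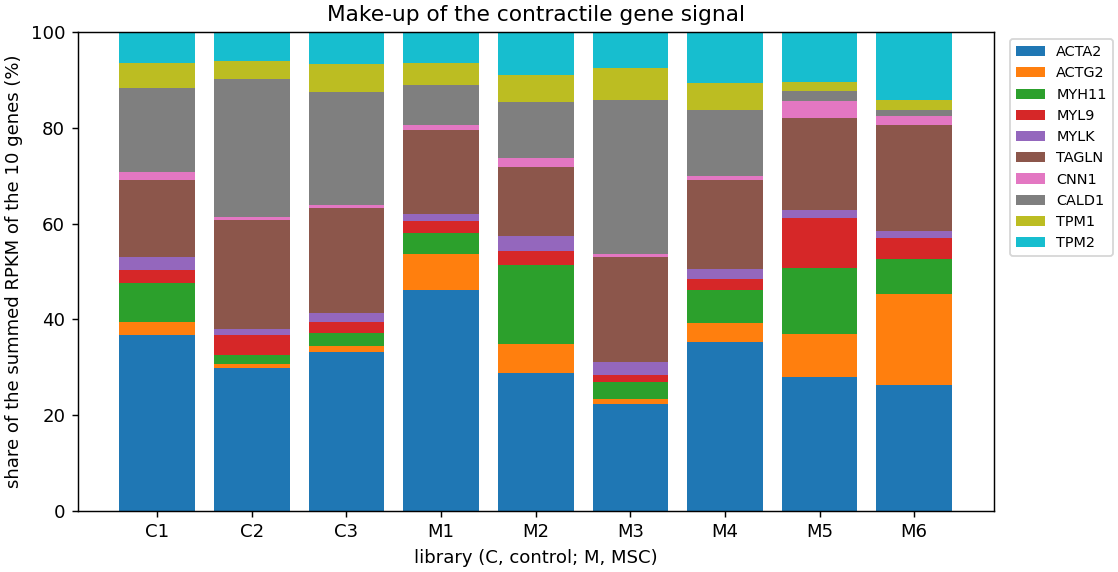
Share of each gene in the summed scaled RPKM of the 10 contractile genes (%), one bar per library (C1 to C3, controls; M1 to M6, MSC). The CALD1 segment shrinks to 2.06% and 1.32% in M5 and M6 and reaches 32.0% in M3, and the ACTG2 segment is widest in M6 at 19.0%.

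Muscle forms were then set against other forms of the same protein in the same library, which removes the library scaling. Of 8 ratios listed, 7 could be computed, since TAGLN2 had no row under that name. ACTG2 to ACTA2 was 0.0740, 0.0282 and 0.0353 in the controls and 0.166, 0.205, 0.0535, 0.117, 0.317 and 0.721 in MSC 1 to MSC 6. All MSC libraries but MSC 3 exceeded every control, and MSC 3 lay between control 1 and control 3. The log2 ratio was higher in the MSC group by 2.19, with an exact two-sided permutation p of 0.0476 and 0.208 after Benjamini-Hochberg adjustment over the 7 ratios.

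ACTG2 to the non-muscle actin ACTG1 was 0.0783, 0.0115 and 0.0229 in the controls and 0.379, 0.163, 0.0284, 0.174, 0.607 and 1.94 in the MSC libraries. All MSC libraries but MSC 3 exceeded every control and MSC 3 lay within the control range, with a log2 difference of 3.28 (exact permutation p of 0.0595, adjusted 0.208). MYH11 to the non-muscle myosin MYH9 was 1.49, 0.201 and 0.345 in the controls and 1.19, 4.92, 0.383, 1.38, 4.31 and 5.81 in the MSC libraries. Control 1 lay above MSC 1, MSC 3 and MSC 4, and the log2 difference was 2.14 (exact permutation p of 0.0952, adjusted 0.217).

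ACTA2 to ACTB was 9.62, 1.77 and 3.95 in the controls and 15.3, 8.74, 2.46, 12.7, 3.01 and 10.5 in the MSC libraries. MSC 5 lay below control 1 and control 3 here, and ACTB stood at 729 scaled RPKM in MSC 5 and at 204 or less elsewhere. The log2 difference was 0.81 (exact permutation p of 0.31, adjusted 0.361). The differences for CNN1 to CNN2, TPM2 to TPM4 and MYL9 to MYL12A were 1.87, 2.06 and 1.22 (exact permutation, adjusted p of 0.217, 0.217 and 0.476). Thus 0 of the 7 ratios passed after adjustment, and the smallest p that the 84 assignments can give is 0.0119.

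**Figure D5:**
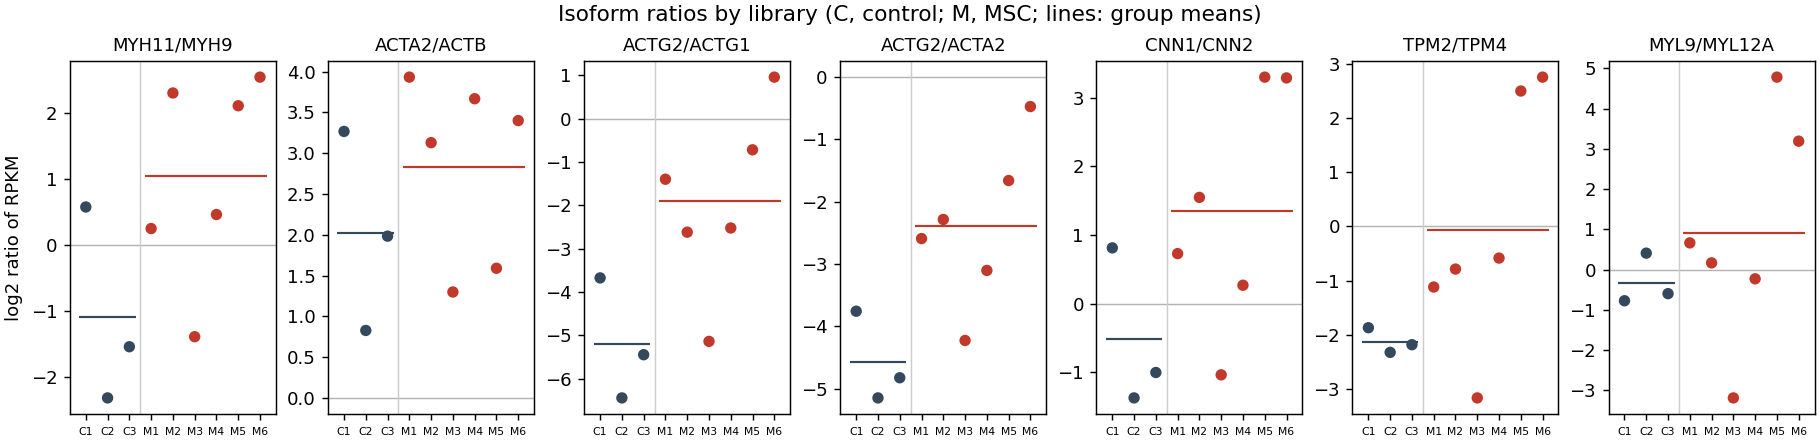
Log2 ratio of a smooth muscle form to another form of the same protein in each library (C1 to C3, controls; M1 to M6, MSC), with group means as lines. ACTG2/ACTA2 lies above every control in 5 MSC libraries, and M3 stands among or below the controls in all panels.

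The non-muscle counterparts differed less between the groups in the median. Of 13 listed, 10 were in the table, 6 with a higher and 4 with a lower mean, and limma called 0 of 10, with a median log2 fold change of 0.25. MYL6, the essential light chain shared by smooth and non-muscle myosin, had 1.33 ± 0.70 (SE; limma adjusted p of 0.92). MYH9 had 0.41, MYL12A 0.39 and CNN2 0.27. MSC 5 held the highest summed level of this list (2597 scaled RPKM), MSC 6 the next (1902), and the controls 690 to 1049.

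Genes that set light chain phosphorylation showed no common direction. Of 15 measured of 16 listed, 9 were higher and 6 lower, limma called 0 of 15, and the median log2 fold change was 0.29. PPP1R14A, the inhibitor of myosin phosphatase also called CPI-17, had 1.82 ± 1.07 (SE) and 64.6 scaled RPKM in MSC 6, against 0.23 to 3.21 in the controls. PPP1R12B, a myosin phosphatase subunit of muscle, had 1.30, the calcium channel gene ITPR1 0.59 and the calmodulin gene CALM3 0.65 (limma adjusted p of 0.92 each). The kinases ROCK1 and ROCK2, which inhibit the phosphatase, had −0.40 and −0.29 and were lowest in MSC 5 at 4.01 and 3.15 scaled RPKM. They, and RHOA at 0.17, were named after their values were seen.

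Structural partners and regulators of smooth muscle were mostly higher in the MSC mean. Of 18 measured of 20 listed, 17 were higher and 1 was lower, limma called 0 of 18, and the median log2 fold change was 0.94 (0 at an unadjusted p under 0.05, as in the 2 lists before it). DES, the muscle intermediate filament protein desmin, had 3.18 ± 1.68 (SE), with 353 and 441 scaled RPKM in MSC 5 and MSC 6 and 0.72 in MSC 3. LMOD1, which nucleates actin filaments in smooth muscle, had 1.70, the potassium channel subunit KCNMB1 1.98 and the actin-binding SYNPO2 1.32 (limma adjusted p of 0.92 each). MYOCD, the coactivator that drives these genes with SRF, stood at 17.6 and 12.3 scaled RPKM in MSC 5 and MSC 6, and at 0.18 to 1.37 in the other 7 libraries. It was named after its values were seen.

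Genes outside the 10 were ranked by their likeness to the average contractile profile, measured as the mean absolute difference of centred log2 levels over the 9 libraries. The closest were ADAMTSL5 (0.35), COL15A1 (0.36), WFDC1 (0.37), GSN (0.37), SLIT3 (0.40) and EPAS1 (0.41), out of 11475 protein-coding genes compared. COL15A1 encodes a basement membrane collagen, GSN the actin-severing protein gelsolin and EPAS1 a hypoxia-inducible transcription factor. Among the contractile genes themselves the same measure was lowest for TPM2 (0.27) and highest for CALD1 (1.30) and ACTG2 (1.07). The average profile includes those genes, so their distances are a description.

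Markers of other cells were set beside the contractile genes, library by library. The 12 fibroblast markers summed to 12400 to 27243 scaled RPKM in controls and 14752 to 58352 in MSC libraries, with MSC 5 highest. Collagens made up most of that sum, with COL1A1, COL1A2 and COL3A1 at 23153, 14603 and 19765 in MSC 5. As a mean of centred log2 levels, where each gene counts alike, these markers stood at 0.05 in MSC 5 and were highest in MSC 3 (0.41). The 10 pericyte markers summed to 116 to 273 and 97.3 to 782, with MSC 5 highest and MSC 3 lowest. The 9 endothelial markers summed to 41.7 to 114 and 65.5 to 187, again highest in MSC 5, and PECAM1, CDH5 and VWF were present in all libraries. Endothelial and smooth muscle markers of a vein wall were therefore found in every library.

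MSC 3, lowest for the contractile genes, held the highest summed level of the 13 leukocyte markers, 289.1 scaled RPKM, beside 288.8 in MSC 6, 147 to 179 in controls and 87.7 to 150 in the other MSC libraries. In MSC 6 CD79A alone gave 228 of that sum. The 15 striated muscle markers, DES among them, summed to 1.55 to 12.1 in controls and 2.13 to 647 in MSC libraries. MSC 6 was highest, with DES at 441 and ACTA1 at 181. In MSC 5 DES gave 353 of a sum of 384. DES was also counted among the structural partners of smooth muscle. TNNC1 stood at 24.99 in MSC 5, 22.05 in MSC 6 and 4.81 in control 1, and at 0.70 or less elsewhere. The skeletal myosin light chain genes MYL1 and MYLPF stood at 0.95 or less in every library. The 7 adipocyte markers were highest in MSC 2 (81.3) and the 6 nerve markers in MSC 5 (55.2). No listed marker was at 0 in all libraries. limma called 0 genes of any of these lists. Fibroblast markers were higher in 7 and lower in 5 of 12 (median log2 fold change 0.25, 4 at an unadjusted p under 0.05). Those 4 went both ways, with MFAP5 (2.29) and CD34 (1.73) higher and POSTN (−1.90) and DPT (−1.03) lower. Pericyte markers were higher in 6 of 10 (0.28) and endothelial markers in 7 of 9 (0.42), with 0 at that level. Leukocyte markers were lower in 11 of 13 (−0.50, 2 at that level) and nerve markers in 4 of 6 (−0.65, 2 at that level). Adipocyte markers were higher in 3 of 6 that passed the filter (−0.06) and striated muscle markers in 9 of 9 (0.16), with 0 at that level. The part of these cells, of the depth and of the small RNA share in the contractile gene levels was not tested.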

How the data were processed

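RNA-seq libraries of pig fistula veins were made with a TruSeq kit from 0.5 µg of total RNA, per the labels' protocols. The deposited values were RPKM, per the file headers. Aligner, counter and strand setting are not given in the sources used here. Both susScr11 and mm10 stand as builds in the submitters' processing notes, neither with a role. The coordinates overlapped the RefSeq gene of the same symbol in the pig assembly Sscrofa11.1 for 10 of 10 contractile genes and for 99.9% of 13772 shared symbols.

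Each RPKM multiplied by gene length plus 1 was a whole multiple of 1 step per library (all values within 0.01 of whole), which gave back the reads. A gene was kept if 3 or more libraries had 10 reads of it (at the depth of the median library) and its total reached 15. RPKM values were scaled per library with trimmed-mean-of-M-values factors (trims 0.3 and 0.05). limma-trend (limma 3.58.1, R 4.3.3) was fitted to log2(scaled RPKM + 1) of all 17884 kept genes and 9 libraries with no covariate. It was checked on simulated data with equal spread in both groups. The contractile genes spread more in the MSC group, so that check does not cover their setting. Adjusted p-values are Benjamini-Hochberg values over all of these genes, with a threshold of 0.05. The pseudocount of 1 makes fold changes of weakly expressed genes too small. Ratios were tested by exact two-sided permutation over the 84 assignments of libraries to groups (Python 3.11.15).

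Rows were matched to the gene names of the table, and for other lists also to a gene name table. All contractile genes are named. From the pathway lists the rule took up to 4 genes by smallest limma p, and others are named only as values chosen after they were seen. Genes of the cell type lists were summed, and those the rule took there are mostly not named. Other genes named from these lists were chosen with their values known. The rule also took the 6 genes most like the contractile profile among protein-coding genes averaging 50 reads or more. The contractile genes, lists and tests were chosen with earlier results of these data known. Whether each library is its own animal is not stated in the labels, so the p-values reflect only spread among libraries, which may be technical.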

Additional observations from a re-analysis of the deposited data

How the results depend on the processing

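Of 19 alternative settings, 0 called any of the 10 contractile genes, and the lowest limma adjusted p was 0.426, for ACTG2 without MSC 3. The direction held in all 19 settings for every contractile gene except MYL9, which turned to -0.020 in lanes 5 and 6 alone, and the cause was not tested. The ratio of MYL9 to MYL12A turned to −0.60 in lanes 5 and 6 alone and to −0.33 without MSC 5 and MSC 6. In the 12 settings 0 ratios passed. In lanes 5 and 6 alone, with 3 libraries per group, the permutation test cannot give a p under 0.05, so no ratio could pass there. Leaving out libraries in other settings also raised the smallest p that the test can give. The median of the contractile genes ranged from 1.04 to 2.15 with each library left out. The number of genes called was 4 in lanes 5 and 6 alone and 0 to 22 with each library left out, 22 without control 1, 3 without MSC 3 and 1 without MSC 2. Scaling by median-of-ratios factors gave a median of 1.58 and RPKM as deposited 1.35. With a replicate block the median was 0.58 and 0 genes were called. That fit compares only numbers 1, 2 and 3, since MSC 4, MSC 5 and MSC 6 have no control of the same number. Deviations of same-numbered libraries from their group means correlated at 0.22, −0.52 and −0.14 for numbers 1, 2 and 3. Control 1 and MSC 1 also shared lane 5, and control 3 and MSC 3 shared lane 6. Differently numbered libraries reached 0.56 (control 2 with MSC 6), so these values cannot decide whether same-numbered libraries were paired. The planned count models edgeR and DESeq2 were not run, because the deposited unit is RPKM. Depth limited no contractile gene, the lowest having 209 reads.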
